A study of Mus musculus with 25 samples.

Results

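The 10 genes described here carry dietary fat through the absorptive cell of the gut: Cd36, Fabp1, Fabp2, Mogat2, Dgat1, Mttp, Apob, Apoa1, Apoa4 and Apoc3. They were chosen by name, as the rows of the deposited count table whose symbol is one of these, and all 10 were found among 17007 genes. RNA came from the duodenum, the first stretch of the small intestine, of male mice that were 8 weeks old when feeding started and were then fed for 8 weeks. The KI_Half group (6 libraries) held Aldh2 knock-in mice on the half-dose diet, in which the food contained 2.5% ethanol and 2 g/kg ethanol was also given by gavage, 2 times weekly. The KI_Con group (4 libraries) held knock-in mice on the control diet. The remaining mice were C57BL/6N, here called wild type: WT_Con (4 libraries) on the control diet, WT_Half (7 libraries) on the half-dose diet, and WT_Full (4 libraries) on the full diet, in which the food contained 5% ethanol and each of 2 weekly gavages 4 g/kg. Aldh2 encodes the mitochondrial enzyme that clears acetaldehyde, the first product of ethanol oxidation. The sources used here do not give which allele was knocked in, or whether the genotypes were littermates. Mice were killed 9 h after a final gavage of 5 g/kg, and it is not stated whether the control groups were gavaged or whether the half-dose diet groups received the same final dose, so ethanol cannot be told apart from gavage. Nothing in the labels says that each library is a separate animal, so p-values measure the spread between these libraries.

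In the gut lumen, dietary triglyceride is split into fatty acids and monoacylglycerol, which enter the enterocyte across its brush border. Inside the cell, fatty acid binding proteins carry them to the endoplasmic reticulum, where acyltransferases rebuild triglyceride. The transfer protein encoded by Mttp loads that triglyceride onto apolipoprotein B, smaller apolipoproteins join the surface, and the finished chylomicron leaves in large transport vesicles for the lymph. Lack of Mttp or of apolipoprotein B in people causes fat malabsorption, with lipid held inside the enterocytes.

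Total counts ran from 24.6 to 44.8 M per library, with a median of 32.0 M, and each of the 10 genes had counts in all 25 libraries. Levels are given as counts-per-million values (CPM) after scaling of all libraries together. The pieces of duodenum differed in make-up. The summed CPM of the Brunner gland markers Muc6, Tff2 and Gkn3 spanned 15.3 to 53685, and WT_Con replicates 3 and 4, at 53685 and 33250 CPM, were the highest. WT_Con replicate 3 also held 13463 CPM of the stomach markers, against 525 CPM or less in every other library. All 12 enterocyte markers were detected in every library, while the ileal bile acid carrier Slc10a2 stayed between 0.51 and 2.68 CPM. Hepatocyte markers were present too, with Alb at 72.2 to 1086 CPM. The liver also makes several of these apolipoproteins. The hepatocyte sum was lowest, at 110 CPM, in WT_Full replicate 4, which had the highest Apoa1 (15756 CPM), and highest, at 1635 CPM, in WT_Con replicate 1, which had the highest Apoc3 (839.7 CPM). The part of liver RNA in these levels was not tested.

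Together the 10 genes took between 1.01 and 3.14% of all counts of a library. Set per kilobase of exon, so that genes of different length can be compared, Apoa1 was the most abundant in all 5 groups, at 6717 ± 2274 CPM per kb in KI_Half, 6789.9 ± 1669 in KI_Con, 5239 ± 3269 in WT_Con, 7921 ± 2083 in WT_Half and 6508 ± 4355 in WT_Full (SD). Cd36 was the lowest in all 5 groups, at 3.06 to 5.01 CPM per kb, and its range did not overlap that of Apob, the next gene up, in any of them. Fabp1, Fabp2 and Apoa4 filled places 2 to 4 everywhere, and in each group the ranges of neighbours among these 3 overlapped. Their order was not constant. On this per-length scale Fabp2 took place 4 in KI_Half (1470.5 ± 320.3 CPM per kb) and place 2 in KI_Con (3399 ± 562). In wild type it took place 2 in WT_Con (2507 ± 1142), place 4 in WT_Half (1852 ± 618) and place 3 in WT_Full (1973 ± 1096). The other 5 genes, Mttp, Apoc3, Mogat2, Dgat1 and Apob, followed at group means of 111 to 489 CPM per kb.

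**Figure D1:**
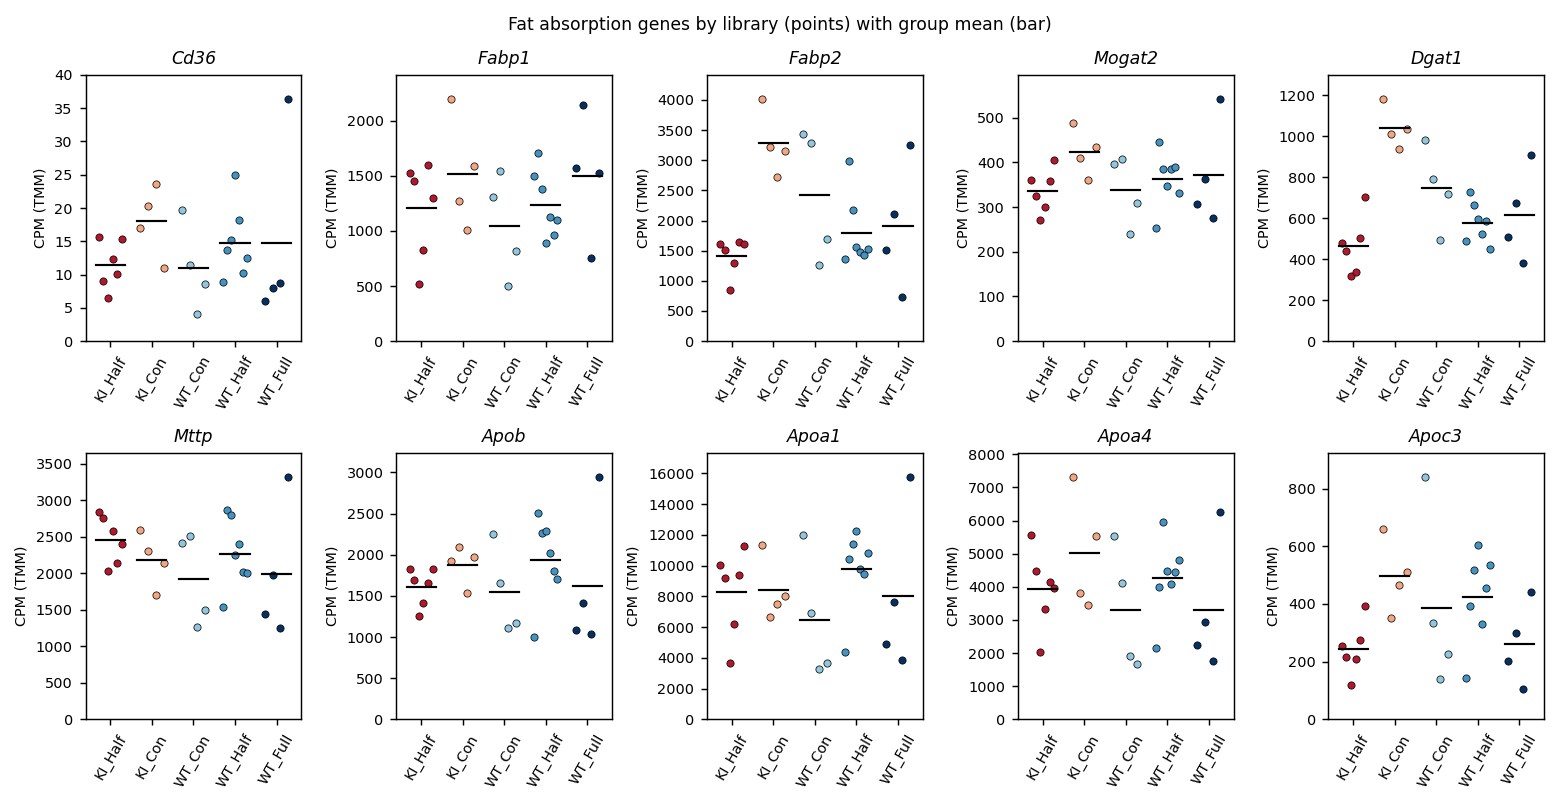
CPM of each gene (vertical axes, linear from 0) in every library, with 1 point per library and a bar at the group mean, for KI_Half, KI_Con, WT_Con, WT_Half and WT_Full. For Fabp2 and Dgat1 all 6 KI_Half points lie below all 4 KI_Con points, while WT_Full replicate 4 stands at the top of its group for 9 of the 10 genes, all but Fabp1.

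The first question is what the half-dose diet did in knock-in mice, asked as KI_Half vs KI_Con. Of the 10 genes, 3 were lower in KI_Half: Fabp2, which encodes the intestinal fatty acid binding protein, Dgat1, an enzyme of the last step of triglyceride synthesis, and Apoc3, a small apolipoprotein that restrains triglyceride clearance. Each was at about 0.44 to 0.50 times its KI_Con level. No gene was higher. Mttp and Apob, which start the particle, and Apoa1 gave log2 fold changes between -0.21 and 0.18. This was a broad change of the tissue: edgeR's quasi-likelihood test called 37.9% of 16944 genes at a Benjamini-Hochberg adjusted p under 0.05, 17.9% as lower. A count of 3 in 10 therefore does not set the fat absorption genes apart. Their median log2 fold change was -0.34, beside a median of 0.00 over all genes tested. In whole tissue, fewer cells of a type and less RNA per cell cannot be told apart.

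The largest difference was in Fabp2 (ENSMUSG00000023057, GRCm38 chromosome 3, 122895072 to 122899506, plus strand), whose protein is found in the small intestine and binds long-chain fatty acids. The KI_Half libraries ran from 846 to 1642 CPM with a median of 1558.5 CPM, against 4019, 3226, 2716 and 3159 CPM in the KI_Con libraries. All 6 KI_Half libraries were below all 4 KI_Con libraries, as were those of 13.9% of all genes tested. The mean was 1419 ± 309 CPM in KI_Half and 3280.0 ± 542 CPM in KI_Con (SD), a log2 fold change of -1.20 ± 0.18 (SE, 95% interval -1.60 to -0.80, edgeR adjusted p = 0.000901).

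Its relative Fabp1 (ENSMUSG00000054422, chromosome 6, 71199827 to 71205023, plus strand) encodes the liver type binding protein, which enterocytes make alongside the intestinal type and which also binds monoacylglycerol. Fabp1 ran from 519 to 1598.5 CPM in KI_Half with a median of 1375 CPM, against 2198, 1272, 1006 and 1584 CPM in KI_Con. These groups overlapped, and the log2 fold change of -0.32 ± 0.31 (interval -0.99 to 0.35) did not pass (edgeR adjusted p = 0.432). The interval still allows a fall as deep as 0.99 on the log2 scale.

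One of these related genes passed and the other did not, although the difference between them was not itself tested, so the stretches just upstream of their start sites are shown 5′ to 3′. They come from RefSeq windows on GRCm38.p6 that reach 250 bases before and 50 bases after the start. The Fabp2 stretch is chr3:122894822-122895071 and the Fabp1 stretch, which stops before the first GENCODE exon, is chr6:71199629-71199826, both on the plus strand. Capitals mark matches on either strand to AGGTCA, an element bound by nuclear receptors, or to GTTAAT, an element of homeodomain factors.
Fabp2: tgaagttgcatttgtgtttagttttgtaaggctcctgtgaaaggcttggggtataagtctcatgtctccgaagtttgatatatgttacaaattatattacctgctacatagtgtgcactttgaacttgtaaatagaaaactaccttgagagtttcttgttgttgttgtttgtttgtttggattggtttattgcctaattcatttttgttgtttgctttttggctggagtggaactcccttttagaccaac
Fabp1: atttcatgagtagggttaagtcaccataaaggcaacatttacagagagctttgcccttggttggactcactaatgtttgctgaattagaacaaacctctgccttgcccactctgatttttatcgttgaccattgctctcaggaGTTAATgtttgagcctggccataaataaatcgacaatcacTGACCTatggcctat
Such windows were found for 7 of the 10 genes, and not for Mogat2, Dgat1 or Apoc3. Of the genes that passed as lower, only Fabp2 was therefore searched. AGGTCA, searched on both strands, was in the windows of Cd36 and Fabp1 and in 16.3% of 32851 promoters of the same 300 bases. GTTAAT was in that of Fabp1 and in 7.1% of all promoters. TATAAA was in those of Fabp1 and Apob and in 13.6% of all. The GATA factor motif AGATAA (11.2% of all promoters) and the HNF4 site CAAAGTCCA (0.475%) were in none of the 7. Where letters are absent from a window, only that is shown, and nothing follows about the factor.

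Cd36 (ENSMUSG00000002944, chromosome 5, 17781690 to 17888801, minus strand) encodes a fatty acid receptor of the brush border and was scarce in these libraries, at place 8374 of 17007 by mean CPM. It ran from 6.42 to 15.6 CPM in KI_Half with a median of 11.2 CPM, against 17.1, 20.3, 23.6 and 10.98 CPM in KI_Con. All 6 KI_Half libraries were below the KI_Con mean and 3 were below every KI_Con library. The log2 fold change of -0.64 ± 0.27 did not pass with edgeR (adjusted p = 0.0799), while DESeq2 gave an adjusted p of 0.0492. Which cell types the Cd36 RNA came from was not tested.

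Mogat2 and Dgat1 work in sequence in the resynthesis of triglyceride. Mogat2 (ENSMUSG00000052396, chromosome 7, 99219084 to 99238619, minus strand) adds the first fatty acid back to monoacylglycerol, and Dgat1 (ENSMUSG00000022555, chromosome 15, 76502015 to 76511953, minus strand) adds the last one to diacylglycerol. Dgat1 ran from 316 to 701 CPM in KI_Half with a median of 459 CPM, against 1182, 1008, 935 and 1035 CPM in KI_Con. The groups did not overlap. The mean was 462 ± 139 CPM in KI_Half and 1039.9 ± 104 CPM in KI_Con, a log2 fold change of -1.16 ± 0.20 (interval -1.59 to -0.72, edgeR adjusted p = 0.00156). Mogat2 ran from 271 to 405 CPM in KI_Half with a median of 341 CPM, against 489, 411, 361 and 435 CPM in KI_Con. Although 5 of its 6 KI_Half libraries were below every KI_Con library, the log2 fold change of -0.32 ± 0.13 did not pass (adjusted p = 0.0653).

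Mttp (ENSMUSG00000028158, chromosome 3, 138089854 to 138144968, minus strand) encodes the large subunit of the transfer protein, and Apob (ENSMUSG00000020609, chromosome 12, 7977648 to 8016835, plus strand) the scaffold of the particle. Mttp was the only one of the 10 genes with a positive estimate in this fit: it ran from 2030 to 2832 CPM in KI_Half with a median of 2491 CPM, against 2595, 2305, 1699 and 2147 CPM in KI_Con. The log2 fold change was 0.18 ± 0.14 (interval -0.13 to 0.48, edgeR adjusted p = 0.336). Apob ran from 1261 to 1833 CPM in KI_Half with a median of 1673 CPM, against 1923, 2092, 1532 and 1973 CPM in KI_Con, and its log2 fold change was -0.21 ± 0.13 (interval -0.50 to 0.08, adjusted p = 0.235). The groups of both genes overlapped.

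The 3 apolipoprotein genes of chromosome 9 lie next to each other, Apoa1 (ENSMUSG00000032083, 46228580 to 46230466, plus strand), Apoc3 (ENSMUSG00000032081, 46232933 to 46235636, minus strand) and Apoa4 (ENSMUSG00000032080, 46240696 to 46243459, plus strand). Apolipoproteins A-I and A-IV coat new chylomicrons, and A-I is also the main protein of high density lipoprotein. Apoc3 ran from 120 to 393 CPM in KI_Half with a median of 236 CPM, against 659, 351, 465.7 and 509 CPM in KI_Con. The groups overlapped through KI_Half replicate 7, and the other 5 KI_Half libraries were below every KI_Con library. The mean was 245 ± 89.9 CPM in KI_Half and 496 ± 127 CPM in KI_Con, a log2 fold change of -1.01 ± 0.27 (interval -1.60 to -0.41, edgeR adjusted p = 0.0138). Its neighbours did not pass. Apoa1 ran from 3690 to 11281 CPM in KI_Half with a median of 9276 CPM, against 11371, 6668, 7505 and 8025 CPM in KI_Con (log2 fold change -0.01 ± 0.28, interval -0.62 to 0.61, adjusted p = 0.991). Apoa4 ran from 2033 to 5571 CPM in KI_Half with a median of 4053.5 CPM, against 7310.2, 3827, 3457 and 5541 CPM in KI_Con (log2 fold change -0.35 ± 0.27, interval -0.94 to 0.24, adjusted p = 0.330). KI_Half replicate 3 was the lowest of its group for all 10 genes. It held 7174 CPM of Brunner gland markers, the most of its group. In WT_Half, replicate 6 held the most of them, 16945 CPM, and was neither the highest nor the lowest of its group for any of the 10 genes. WT_Half replicate 2, with 11521 CPM of them, was the highest of that group for Fabp1, Fabp2, Mogat2, Dgat1, Mttp and Apob. The part of Brunner gland RNA in these values was not tested.

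**Figure D2:**
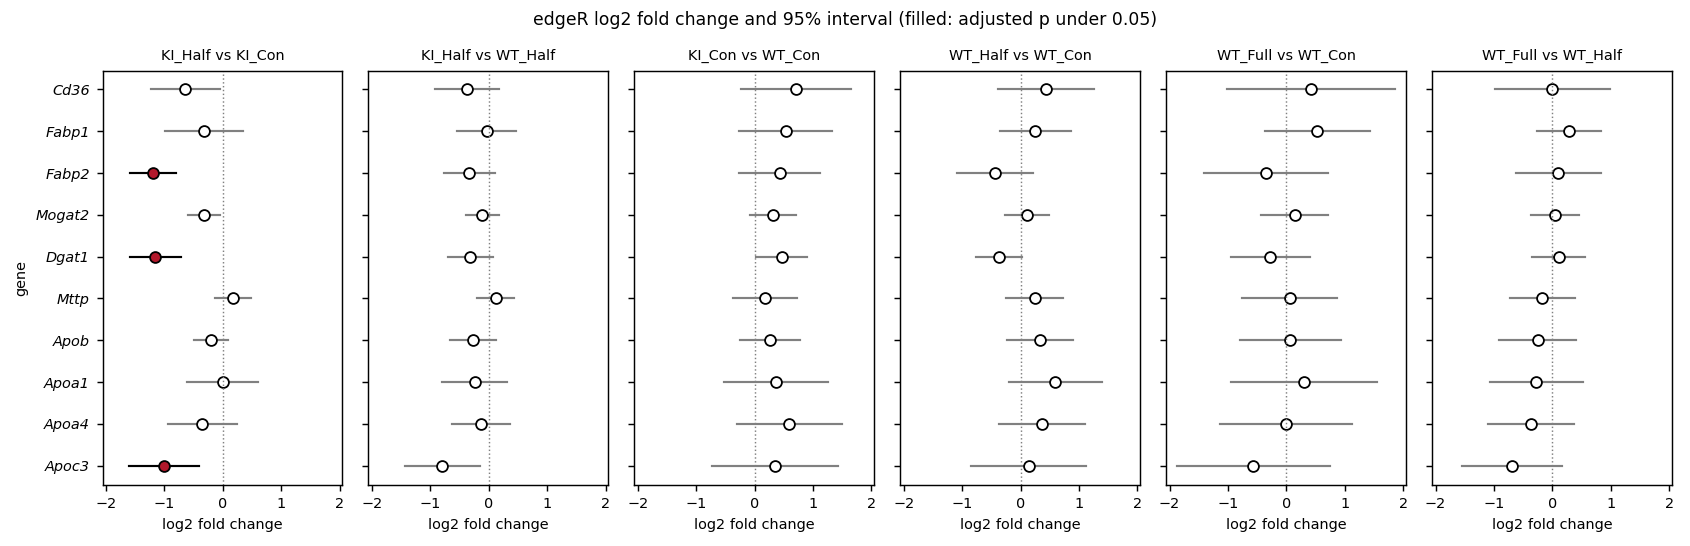
Log2 fold change of each gene (horizontal axis, first group over second) with its 95% interval, in 6 comparisons, where a filled point marks an edgeR adjusted p under 0.05. Filled points occur only for Fabp2, Dgat1 and Apoc3 in KI_Half vs KI_Con, and the intervals of WT_Full vs WT_Con are the widest for all 10 genes.

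The 3 lower genes moved beside markers of cell types. Of 12 enterocyte markers, 11 were lower in KI_Half, all but Cdh17, with a median log2 fold change of -0.88. The sum over the 12 ran from 11966 to 21015 CPM in KI_Half libraries, below the 22869 to 28382 CPM of every KI_Con library. Of 8 general epithelial markers, 4 were higher (Cdh1, Krt8, Krt18 and Krt19) and none lower, with sums of 13576 to 23016 CPM in KI_Half and 9714 to 12984 CPM in KI_Con. Of 7 crypt and cycling cell markers, 5 were higher and 1, Lgr5, lower. All 8 pancreatic acinar markers were lower. They summed to 19.5 to 37.5 CPM in KI_Half, against 4451 and 1564 CPM in KI_Con replicates 1 and 2. KI_Con replicates 3 and 4, at 30.4 and 30.8 CPM, lay within the KI_Half range. No hepatocyte marker of 7, smooth muscle marker of 6 or Brunner gland marker of 3 passed, while 2 of 6 macrophage markers and 3 of 6 endothelial markers were lower and 1 endothelial marker higher. Of 4 stomach markers tested, Gkn1 and Gkn2 were lower, and the list summed to 4.02 to 128 CPM in KI_Half and 2.99 to 183 CPM in KI_Con. The part of these cell types in the fall of Fabp2, Dgat1 and Apoc3 was not tested beyond the ratios and fits given next.

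Set against the enterocyte sum of the same library, Fabp2 stood at 70.7 to 99.4 per 1000 CPM of enterocyte markers in KI_Half and at 119 to 142 in KI_Con, and Dgat1 at 25.1 to 33.3 in KI_Half and 38.3 to 41.7 in KI_Con. Both stayed apart between these 2 groups, and Apoc3 did not, at 10.02 to 18.7 in KI_Half and 13.3 to 23.2 in KI_Con. In wild type the groups overlapped for both genes. Fabp2 stood at 85.5 to 145 in WT_Con, 70.3 to 129 in WT_Half and 68.1 to 135 in WT_Full. Dgat1 stood at 33.1 to 41.2 in WT_Con, 24.7 to 42.8 in WT_Half and 34.9 to 43.1 in WT_Full. Between KI_Half and KI_Con, Mttp, Apob and Mogat2 were on the other side. Mttp gave 114 to 192 per 1000 CPM in KI_Half and 74.3 to 91.4 in KI_Con, Apob 87.2 to 107 in KI_Half and 67.0 to 79.4 in KI_Con, and Mogat2 19.3 to 22.6 in KI_Half and 15.6 to 17.2 in KI_Con. In wild type, Mogat2 stood at 16.2 to 17.1 in WT_Con, below the 17.98 to 22.2 of WT_Half and 21.3 to 25.4 of WT_Full. Mttp stood at 81.1 to 104.97 in WT_Con, 104.5 to 135 in WT_Half and 106 to 130 in WT_Full. Apob overlapped, at 63.4 to 94.9 in WT_Con, 87.4 to 119 in WT_Half and 79.9 to 116 in WT_Full. These ratios are descriptions without a test, and the sum they divide by is itself lower in KI_Half. How many other genes stay apart on this scale was not counted.

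**Figure D3:**
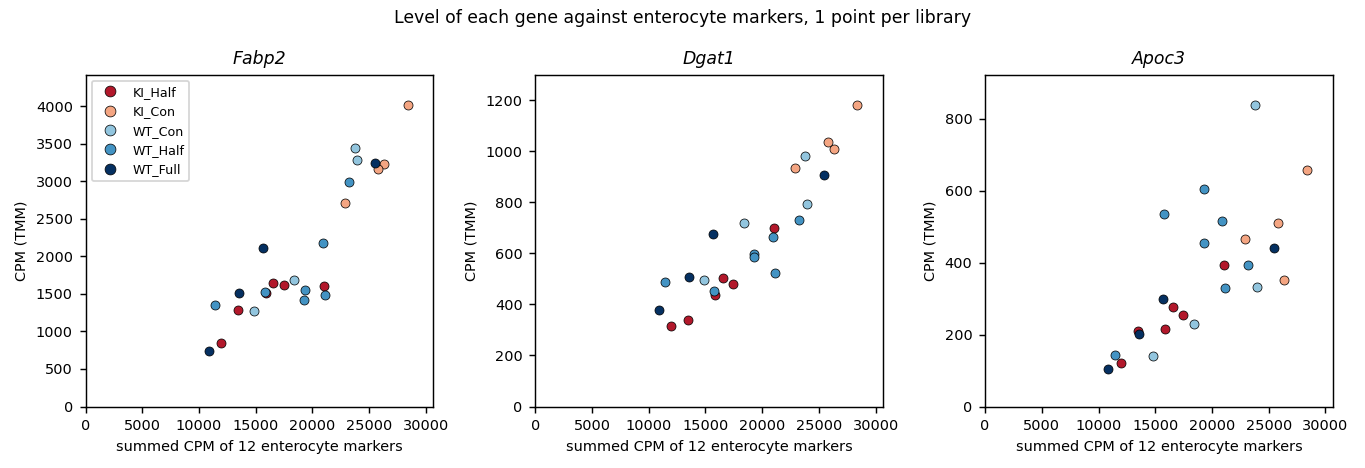
CPM of Fabp2, Dgat1 and Apoc3 (vertical axes) against the summed CPM of 12 enterocyte markers (horizontal axes), with 1 point per library and colours for the groups. The 4 KI_Con libraries lie at 22869 CPM of markers and above, to the right of all 6 KI_Half libraries, and for Fabp2 and Dgat1 they also lie above all 6 of them.

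When the mean log2 CPM of the epithelial markers entered the fit as a covariate, none of the 3 passed: Fabp2 had a log2 fold change of -0.83 (edgeR adjusted p = 0.281), Dgat1 of -0.35 (0.554) and Apoc3 of -0.23 (0.839). That covariate differs between the groups itself, so it and the diet cannot be told apart. Apoc3 also missed the threshold in a fit of all 25 libraries (log2 fold change -1.02, edgeR adjusted p = 0.0678) and without KI_Con replicates 1 and 2 (-0.98, adjusted p = 0.071), folds close to that of -1.01 above. That second fit left 2 KI_Con libraries, and there Fabp2 (adjusted p = 0.0230) and Dgat1 (0.0294) passed. Without KI_Half replicate 7, which had the highest enterocyte sum of its group, 5 genes were lower, since Cd36 (adjusted p = 0.0428) and Mogat2 (0.0211) joined. Cd36 also passed without KI_Con replicate 4 (edgeR adjusted p = 0.0379).

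The next question is whether the half-dose diet acted differently in the genotypes. The interaction of genotype and diet, a difference of log2 fold changes, was negative for all 10 genes, from -0.07 for Mttp to -1.15 for Apoc3 on the log2 scale, and none passed. Dgat1 had the smallest p, with an interaction of -0.79 ± 0.28 (interval -1.37 to -0.21, edgeR adjusted p = 0.334), followed by Cd36 at -1.08 ± 0.49 (adjusted p = 0.373). Across 17006 genes edgeR called 0.0%, although 2162 had an unadjusted p under 0.05, and DESeq2 called 36 genes with none of the 10 among them. So the fall of Fabp2, Dgat1 and Apoc3 in knock-in mice is not shown to be particular to that genotype. Nor was the negative sign particular to the 10 genes, since all 12 enterocyte markers had a negative interaction. The median was -0.78 for those markers and -0.66 for the 10 genes, while 51.0% of all genes tested had a positive estimate.

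Between the genotypes on the half-dose diet, KI_Half vs WT_Half, 9 of the 10 estimates were negative and none passed. Apoc3 was farthest from 0, with 120 to 393 CPM in KI_Half (median 236 CPM) and 143 to 604 CPM in WT_Half (median 454 CPM), a log2 fold change of -0.80 ± 0.30 (interval -1.44 to -0.15, edgeR adjusted p = 0.302). In the authors' deposited table for this comparison Apoc3 has a log2 fold change of -0.79 and an adjusted p of 0.253. Dgat1 ran from 316 to 701 CPM in KI_Half (median 459 CPM) and from 451 to 729 CPM in WT_Half (median 585 CPM). Its log2 fold change was -0.32 ± 0.18, and that of Fabp2 was -0.33 ± 0.21. EdgeR called 0.0% of 16907 genes, with 2398 at an unadjusted p under 0.05, and DESeq2 called 172. Of the 12 enterocyte markers, 11 had negative estimates here too, with a median of -0.46, beside -0.25 for the 10 genes. Over all genes tested 46.9% of estimates were positive.

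On the control diet, KI_Con vs WT_Con, all 10 estimates were positive, between 0.18 for Mttp and 0.71 for Cd36, and none passed (0.0% of 16813 genes with edgeR, 1664 at an unadjusted p under 0.05, 11 with DESeq2). Estimates of all 12 enterocyte markers were positive too, with a median of 0.37, beside 0.39 for the 10 genes. Over all genes tested 46.9% were positive. For 9 of the 10 genes, all but Fabp1, the SD was larger in WT_Con. Dgat1 had 1182, 1008, 935 and 1035 CPM in KI_Con, against 980.5, 792, 494 and 718 CPM in WT_Con, a log2 difference of 0.47 ± 0.19 (interval 0.03 to 0.90, edgeR adjusted p = 0.502). For Fabp2 and Apoc3, whose KI_Con values are given above, the WT_Con libraries had 3440.5, 3281, 1269 and 1687 CPM of Fabp2 and 839.7, 333, 139 and 228 CPM of Apoc3. The low values belong to WT_Con replicates 3 and 4, which were below the other WT_Con libraries for every one of the 10 genes. These held the most Brunner gland markers, 53685 and 33250 CPM. Replicate 1, with 10608 CPM of them, was the highest of the group for Cd36, Fabp2, Dgat1, Apob, Apoa1, Apoa4 and Apoc3. Replicate 2, with 35.1 CPM of them, was the highest for Fabp1, Mogat2 and Mttp. The part of Brunner gland RNA in these values was not tested beyond the fit given next. With Brunner gland content as a covariate the Mttp estimate was -0.02, the only change of sign among the 10 genes in that fit.

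In wild type mice none of the 10 genes passed at either dose of ethanol. These comparisons share the WT_Con libraries with each other and with KI_Con vs WT_Con. Pancreatic acinar markers summed to 2212, 20.1, 1719 and 218 CPM in the WT_Con libraries. They summed to 24.0 to 94.4 CPM in WT_Half and 25.3 to 33.2 CPM in WT_Full. Of these 8 markers, 6 passed as lower in WT_Half vs WT_Con. The part of acinar RNA in the values of the 10 genes was not tested. For WT_Half vs WT_Con, edgeR called 1.47% of 16993 genes. The estimates of 8 genes were positive, up to 0.59 ± 0.37 for Apoa1, and those of Fabp2 (-0.43 ± 0.30, interval -1.08 to 0.22) and Dgat1 (-0.37 ± 0.18, interval -0.77 to 0.03) were negative. Fabp2 ran from 1356 to 2988 CPM in WT_Half with a median of 1523.5 CPM, and Dgat1 from 451 to 729 CPM with a median of 585 CPM (WT_Con values are given above). The groups of both genes overlapped.

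For WT_Full vs WT_Con, edgeR called 0.00592% of 16882 genes, which is 1 gene, and estimates of the 10 genes lay between -0.57 for Apoc3 and 0.53 for Fabp1. The intervals were wide, for instance -1.87 to 0.74 for Apoc3 and -0.94 to 1.55 for Apoa1. WT_Full replicate 4 was the highest of its group for 9 of the 10 genes. Fabp2 had 1514.5, 2115, 739.97 and 3247 CPM in WT_Full, Dgat1 506, 674, 379 and 908 CPM, Apob 1084, 1413, 1038 and 2944 CPM, and Apoa1 4930, 7638.5, 3850.2 and 15756 CPM, the last value of each being replicate 4. That library also had the highest enterocyte sum of its group, 25488 CPM, against 10864 to 15650 CPM in the other 3. Without it, 9 of the 10 estimates were negative, down to -0.91 for Apoc3 and -0.71 for Fabp2, while edgeR called 2069 genes in all and none of the 10 (lowest adjusted p 0.260, Dgat1). In the authors' deposited table for this comparison the lowest adjusted p of the 10 genes is 0.352, for Fabp1. WT_Full vs WT_Half gave estimates between -0.69 for Apoc3 and 0.29 for Fabp1 with none passing (0.0% of 16967 genes with edgeR, 780 at an unadjusted p under 0.05, 20 with DESeq2).

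Ratios were also formed within each library between genes with related roles. They are given as descriptions over 6 pairs, without a test, and how often ratios of other genes part the groups was not counted. Fabp2 over Fabp1 was 1.03 to 1.63 in KI_Half and 1.83 to 2.70 in KI_Con. In wild type it was 2.06 to 2.63 in WT_Con, 0.905 to 1.75 in WT_Half and 0.962 to 2.12 in WT_Full, where replicate 4 was the high one. Dgat1 over Mogat2 was 1.12 to 1.73 in KI_Half and 2.38 to 2.59 in KI_Con. In wild type it was 1.94 to 2.47 in WT_Con, 1.35 to 1.93 in WT_Half and 1.38 to 1.86 in WT_Full. Every ethanol library lay below every control library of its genotype. In wild type the gap was narrow, from 1.925 in WT_Half replicate 1 to 1.942 in WT_Con replicate 2. Apoc3 over Apoa1 was 0.0236 to 0.0348 in KI_Half and 0.0526 to 0.0635 in KI_Con, and it was 0.0427 to 0.0699 in WT_Con, 0.0327 to 0.0494 in WT_Half and 0.0271 to 0.0409 in WT_Full.

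The remaining pairs stood closer together or ran the other way. Mttp over Apob was 1.29 to 1.83 in KI_Half and 1.09 to 1.35 in KI_Con, and these groups overlapped. In wild type the groups overlapped too, at 1.07 to 1.51 in WT_Con, 0.979 to 1.55 in WT_Half and 1.13 to 1.40 in WT_Full. Apoa4 over Apoa1 was 0.352 to 0.553 in KI_Half and 0.461 to 0.690 in KI_Con. Apoc3 over Apoa4 was 0.0457 to 0.0990 in KI_Half and 0.0902 to 0.135 in KI_Con. The groups of the last pairs overlapped.

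**Figure D4:**
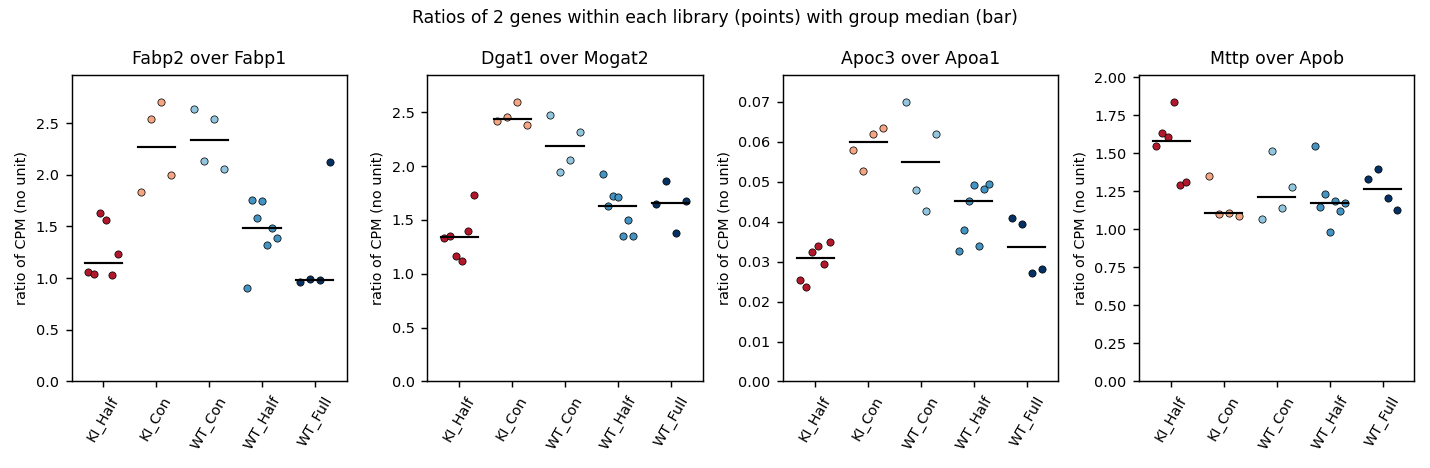
Ratio of the CPM of 2 genes within a library (vertical axes, no unit, from 0), with 1 point per library and a bar at the group median, for KI_Half, KI_Con, WT_Con, WT_Half and WT_Full. Dgat1 over Mogat2 lies below 1.94 in all ethanol libraries and at 1.94 or more in all control libraries, and Mttp over Apob has its highest group median, 1.58, in KI_Half.

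Other genes of fat absorption were counted from 5 lists holding 65 genes, all 65 of which were tested in KI_Half vs KI_Con. There 32 passed, 9 as higher and 23 as lower, where 37.9% of all genes passed. The medians of the lists, between -0.26 and -0.05 on the log2 scale, lay closer to 0 than that of the enterocyte markers. The direction differed between genes of the same list. Of 9 genes of fatty acid uptake and activation, 4 were lower and 1 higher. The transporters Slc27a2 (63.2 ± 31.8 CPM in KI_Half and 202 ± 42.9 CPM in KI_Con, log2 fold change -1.66 ± 0.31) and Slc27a4 (540 ± 189 CPM in KI_Half and 1037 ± 135 CPM in KI_Con, -0.93 ± 0.24) were lower, as were the lipid receptor Scarb1 (-1.19 ± 0.21) and the acyl-CoA synthetase Acsl1 (-0.51 ± 0.13). Another acyl-CoA synthetase, Acsl3, was higher (0.97 ± 0.22).

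Of 10 other genes of triglyceride synthesis, 4 were lower and 3 higher. Agpat1 (-0.80 ± 0.18), Lpin2 (-0.66 ± 0.11) and Lpin3 (-0.56 ± 0.10) were lower and Gpat4 (0.43 ± 0.08) higher, all enzymes of the route that starts from glycerol phosphate. Dgat2, the second enzyme able to add the last fatty acid, had 1586 ± 393 CPM in KI_Half and 951 ± 344 CPM in KI_Con. It passed as higher (log2 fold change 0.75 ± 0.25, edgeR adjusted p = 0.0373), opposite in sign to Dgat1, but missed the threshold in 7 of 10 fits that left out a single library, without KI_Con replicate 2, 3 or 4 or KI_Half replicate 1, 2, 5 or 6 (adjusted p up to 0.101). It also missed it in the fit of all 25 libraries, with either marker covariate, and without the acinar-rich or the Brunner-rich libraries (adjusted p up to 0.939). Agpat2, an acyltransferase of the glycerol phosphate route, was the remaining higher gene (0.40 ± 0.13, edgeR adjusted p = 0.0280), and it missed the threshold in 5 of 10 such fits, without KI_Con replicate 1, 2 or 3 or KI_Half replicate 1 or 2 (adjusted p up to 0.0876), and with the epithelial covariate or without the acinar-rich libraries (up to 0.732).

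Of 10 genes of lipid droplets and lipolysis, 4 were lower and 1 higher, with the triglyceride lipase Pnpla2 at 119 ± 16.1 CPM in KI_Half and 218 ± 23.8 CPM in KI_Con (-0.87 ± 0.12) and the lipase Lipe at 33.1 ± 18.9 CPM in KI_Half and 94.0 ± 5.16 CPM in KI_Con (-1.49 ± 0.35). Lipe is an adipocyte gene as well, and 0 of 5 adipocyte markers tested passed. Of 16 other genes of chylomicron assembly and export, 4 were lower and 2 higher. Tm6sf2, which promotes lipid loading of lipoproteins, was lower (-0.82 ± 0.14), and so were Mia2 (-0.47 ± 0.11) and Sec23a (-0.49 ± 0.13), which serve cargo exit from the endoplasmic reticulum. Of 20 regulators, 7 were lower and 2 higher. The nuclear receptors Ppard (-0.60 ± 0.10) and Nr1h2 (-0.40 ± 0.09) and the coactivator Ppargc1a (-0.77 ± 0.20) were lower, and Hnf4a (0.44 ± 0.11), a nuclear receptor of the gut epithelium, higher. Of the 32 calls, 19 held whichever single library was left out, and these include every gene named in this count except Dgat2 and Agpat2. Without KI_Con replicates 1 and 2, 8 held, and with the epithelial covariate 0 held.

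**Figure D5:**
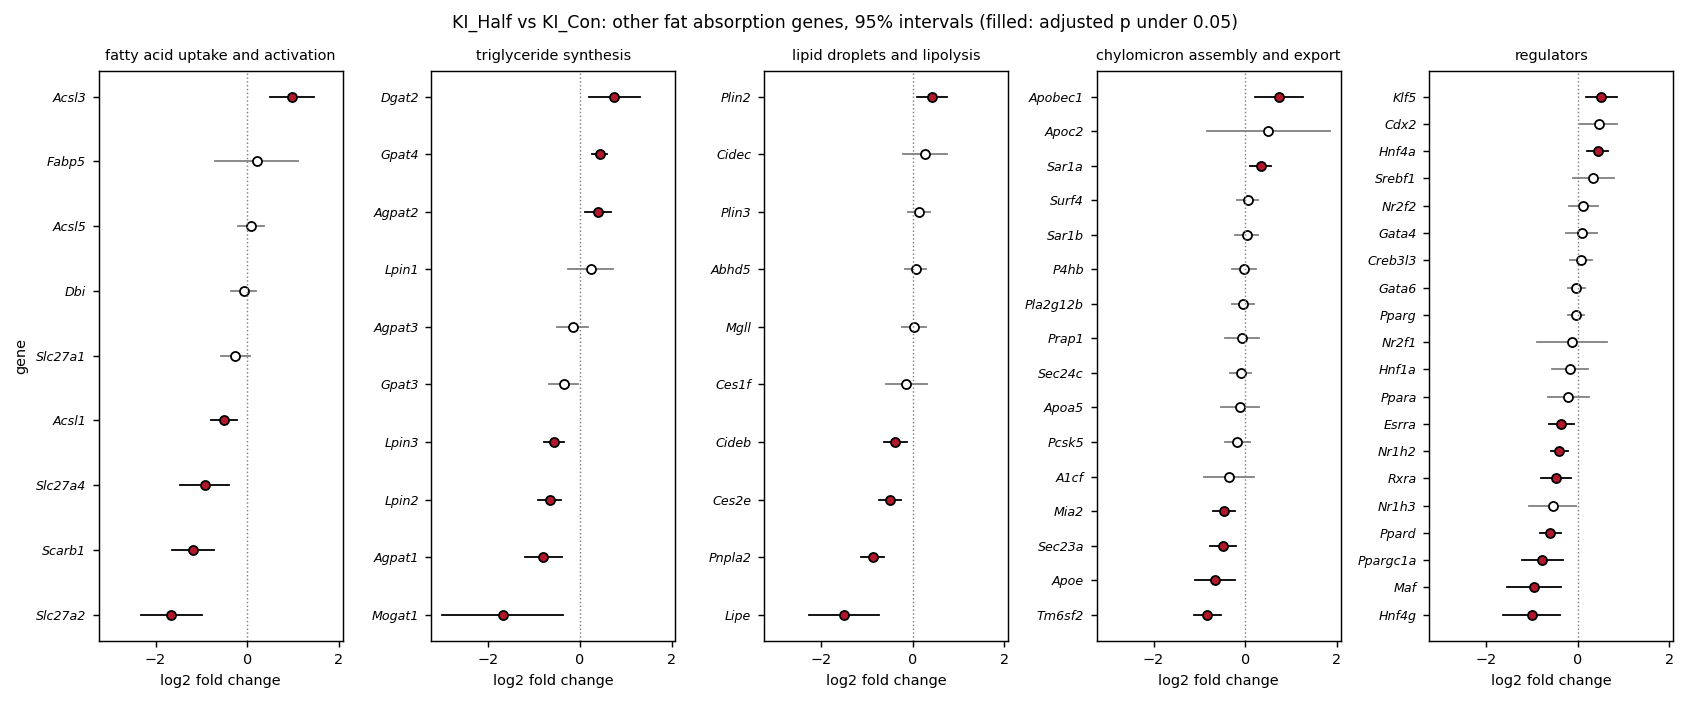
Log2 fold change (horizontal axis, KI_Half over KI_Con) with 95% interval for 65 other fat absorption genes in 5 lists, sorted within each list, where a filled point marks an edgeR adjusted p under 0.05. Filled points stand on both sides of 0 in every list, from Mogat1 at -1.68 to Acsl3 at 0.97.

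In the other comparisons 1 of these 65 genes passed, in WT_Half vs WT_Con, where 1.47% of all genes tested passed. A count of 1 in 65 does not set these genes apart. Agpat2, also called in KI_Half vs KI_Con, was higher in WT_Half (319 ± 48.3 CPM) than in WT_Con (191 ± 11.4 CPM), with a log2 fold change of 0.74 ± 0.13 (edgeR adjusted p = 0.0189), and all 7 WT_Half libraries were above all 4 WT_Con libraries, as were those of 3.1% of all genes tested. The call was lost without WT_Con replicate 1, WT_Con replicate 4 or WT_Half replicate 5 (adjusted p up to 0.0654), and with either the Brunner gland or the epithelial covariate (up to 0.526), while its log2 fold change stayed between 0.68 and 0.79. In WT_Full its level was 350.2 ± 61.2 CPM (log2 fold change over WT_Con 0.88 ± 0.16, adjusted p = 0.103).

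Over the 25 libraries the 10 genes were positively correlated in every one of 45 pairs (Pearson r of log2 CPM 0.285 to 0.918, median 0.707, a description without a test, in which points share the depth and tissue make-up of a library). Apoa1 and Apoa4 were the most alike (0.918), then Fabp2 and Dgat1 (0.916). Dgat1 and Mttp were the least alike over all libraries (0.285), yet after group means were taken out their r was 0.732. By the same measure, the 2 other genes most like Cd36 were Bloc1s6 (0.831) and Bst1 (0.793). Aqp11 (0.870) and Ndufa10 (0.862) were most like Fabp1, Acaa1b (0.938) and Mtarc2 (0.936) most like Fabp2, and Pcsk5 (0.916) and the transporter gene Slc27a4 (0.910) most like Mogat2. Dgat1 was nearest to Prxl2b (0.962) and Agpat1 (0.960). Mttp was nearest to Sar1b (0.945), a GTPase gene of chylomicron export, and Sec24a (0.867), a coat protein gene of the same exit step. Apob was nearest to Cyp3a13 (0.915), Apoa1 to Gpt (0.920) and Ms4a10 (0.907), Apoa4 to Gpt (0.918) and Cs (0.892), and Apoc3 to Cyp2d22 (0.901) and Dpep1 (0.899).

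Exons of 3 of the 10 genes overlap other annotated genes in GENCODE M21: Mogat2 with Gm45012, Mttp with Gm43691 and Trmt10a, and Apoa4 with Gm10680 and Gm47528. The sources used here do not give the strand setting of the counting, so reads of overlapping genes cannot be told apart.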

How the data were processed

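Polyadenylated RNA of 25 duodenum libraries was sequenced. The authors' deposited counts per gene are whole numbers; per the submitters' processing notes they came from Trimmomatic, HISAT2, SAMtools and featureCounts on GRCm38, and versions, annotation and strand are not given there. The deposited log2 fold changes, p-values and mean normalised signal per gene are the authors' DESeq2 output for WT_Full vs WT_Con and KI_Half vs WT_Half, per the file headers. Of 17220 lines, 213 repeated an identifier with equal counts and were merged. No 2 libraries of a group were equal within counting noise. Gene positions and exon lengths come from GENCODE M21.

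Genes were tested with edgeR 4.0.16 (R 4.3.3, limma 3.58.1): filterByExpr, TMM scaling, quasi-likelihood F test, two-sided, on the groups of each comparison, with Benjamini-Hochberg adjustment over all genes tested and a threshold of 0.05. The interaction was fitted over 4 groups. An SE is the log2 fold change divided by the root of F. The code was tested on simulated data. DESeq2 1.42.0, other scalings and filters, a replicate block, marker covariates and single libraries left out were alternatives. Fits without the libraries richest in acinar (over 100 CPM) or Brunner gland markers (over 5000 CPM) were chosen after seeing the data. The 10 genes, the lists and the genes named (members, listed pathway genes, and the genes most like each member) were chosen with earlier results of these data known. Libraries of the same replicate number did not deviate together in every comparison, so a block entered only as an alternative. Several markers of fat, ileum and stomach (Retn, Fabp6, Fgf15, Tff1) were looked up and had no values here, so Slc10a2 was the only ileal marker. A few genes are not reported here.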

Additional observations from a re-analysis of the deposited data

Results flagged for a closer look

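Among 50 sets of values (10 genes in 5 groups), the highest or lowest library stood far from the rest of its group in 2, where chance gives about 1 in 20. Cd36 was at 36.4 CPM in WT_Full replicate 4, while the other 3 WT_Full libraries lay between 6.00 and 8.72 CPM. Apoa1 was at 4370.4 CPM in WT_Half replicate 1, while the other 6 WT_Half libraries lay between 9439 and 12260.0 CPM. WT_Half replicate 1 also had the lowest enterocyte marker sum of its group, 11405 CPM, and WT_Full replicate 4 the highest of its own, 25488 CPM. The part of these sums in the 2 values was not tested.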

How the results depend on the processing

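In KI_Half vs KI_Con the falls of Fabp2 and Dgat1 passed under every alternative except the epithelial covariate, and Apoc3 was also lost in the fit of all 25 libraries and without the acinar-rich libraries. Of the 10 genes, 3 were called, against 5 with the replicate block, 0 with the epithelial covariate and 3 to 5 with single libraries left out (5 without KI_Half replicate 7). Cd36 was also called with DESeq2 and without KI_Con replicate 4. Over all comparisons, deviations of libraries with the same replicate number correlated at -0.40 to 0.51. In KI_Half vs KI_Con these correlations were 0.035, 0.078 and 0.256. Genes called numbered 6420, against 10 with the epithelial covariate and 2565 without the acinar-rich libraries, and lay between 4927 and 7477 with single libraries left out. The block also ended the call of Agpat2 in WT_Half vs WT_Con. In every other comparison 0 of the 10 were called under all alternatives.

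Counts over all genes were less stable. For WT_Full vs WT_Con (1 gene), DESeq2 called 936, the fit of all 25 libraries 1289, the block 0, the Brunner gland covariate 0, the epithelial covariate 0, and leaving out single libraries 0 to 2069 (2069 without WT_Full replicate 4, 12 without WT_Con replicate 2). For WT_Half vs WT_Con (249 genes), these were 1353, 720, 0, 7, 0 and 21 to 446 (21 without WT_Con replicate 1). For WT_Full vs WT_Half (0), DESeq2 called 20 and leaving out single libraries 0 to 2. For KI_Half vs WT_Half (0), DESeq2 called 172, all 25 libraries 2, the Brunner gland covariate 2, the epithelial covariate 1, single libraries left out 0 to 1. For KI_Con vs WT_Con (0), DESeq2 called 11, all 25 libraries 1, the block 1, the Brunner gland covariate 1, the epithelial covariate 3, single libraries left out 0 to 1. For the interaction (0), DESeq2 called 36 and the block 18. The cause of these shifts was not tested.

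Log2 fold changes that changed sign were these. In KI_Half vs KI_Con with the epithelial covariate, Mogat2 was 0.013, Lipe 0.044, Apob 0.047, Acsl1 0.059, Ppargc1a 0.079, Rxra 0.11, Fabp1 0.13, Hnf4g 0.15, Maf 0.23, Apoa1 0.64, Sar1a -0.020 and Apobec1 -0.75. Apoa1 was 0.11 without the Brunner-rich and 0.10 without the acinar-rich libraries, and -0.11 to 0.18 with single libraries left out. In KI_Half vs WT_Half with the epithelial covariate, Apoa1 was 0.0012, Mogat2 0.082 and Fabp1 0.11, and with single libraries left out Fabp1 was -0.13 to 0.12 and Apoa4 -0.25 to 0.0067. In KI_Con vs WT_Con, Mttp was -0.024 with the Brunner gland covariate. In the interaction, Mttp was 0.0076 with that covariate and -0.22 to 0.090 with single libraries left out.

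In WT_Full vs WT_Con with the Brunner gland covariate, Mogat2 was -0.15, Apoa1 -0.27, Apob -0.37, Mttp -0.39 and Cd36 -0.52. With the epithelial covariate, Dgat1 was 1.05, Fabp2 1.75, Apoa4 1.86 and Apoc3 2.19. Apoa4 was 0.0045 with DESeq2 and 0.0048 with its size factors in edgeR, and Apob -0.015 with the block. Single libraries left out gave Cd36 -0.52 to 0.89, Mogat2 -0.082 to 0.25, Mttp -0.28 to 0.22, Apob -0.37 to 0.32, Apoa1 -0.22 to 0.81, Apoa4 -0.50 to 0.38 and Apoc3 -0.91 to 0.18. In WT_Half vs WT_Con, Dgat1 was 0.32 and Fabp2 0.59 with the epithelial covariate, and single libraries left out gave Mogat2 -0.031 to 0.20 and Apoc3 -0.14 to 0.88. In WT_Full vs WT_Half, Cd36 was -0.34 with the Brunner gland covariate, -0.0033 with all 25 libraries and -0.39 with the block, which also gave Dgat1 -0.048 and Fabp2 -0.19. Single libraries left out gave Cd36 -0.95 to 0.25, Fabp2 -0.28 to 0.36, Mogat2 -0.18 to 0.16 and Dgat1 -0.13 to 0.28. Depth limits Cd36 most, with as few as 158 counts in a library, while the other 9 genes had 3738 counts or more in every library.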
